A study of Mus musculus with 31 samples.

Results

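The new H3K27ac islands at previously unmarked sites are 3186 regions of the mouse genome that carried acetylated histone H3 lysine 27 in lung adenocarcinomas with Nkx2-1 deleted, and none of 4 mapped histone marks in lung adenocarcinomas that kept Nkx2-1. They were chosen by the island lists themselves. A deleted-tumor H3K27ac island on chromosomes 1 to 19 was a member when it overlapped, by at least 1 bp, no positive-tumor island of H3K27ac, H3K4me1, H3K4me3 or H3K27me3. The members were 5.24% of the 60744 autosomal H3K27ac islands of deleted tumors and 48.8% of the 6530 islands without H3K27ac in positive tumors. The other new islands lay on positive-tumor H3K27me3 (1057), on H3K4me1 without H3K27me3 (2261) or on H3K4me3 only (26). Of those on former H3K27me3, 528 also lay on positive-tumor H3K4me1. The remaining 54214 islands overlapped positive-tumor H3K27ac and are called kept.

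The study used chromatin immunoprecipitation with sequencing. Mice of mixed 129/B6 strain, 4 to 7 months old, bore lung adenocarcinomas in which Nkx2-1 was positive or deleted. Per the labels' protocols, tumors were started with adenovirus or lentivirus given into the trachea, and tamoxifen was injected at 56 or 112 µg per g. The labels name neither the oncogene alleles nor the mice that had each dose or virus, so these cannot be set beside the groups. For each tumor type, each histone mark was mapped in 1 male and 1 female mouse. Foxa1/2 was mapped in 2 males for positive tumors and 2 females for deleted tumors, and Nkx2-1 in 2 males with positive tumors. The 2 files of every group were identical merged lists, so each group gave 1 list, no result has a replicate check, and no p-value was computed. Within a tumor type the 4 marks were made from the same 2 mice and share their input libraries. Reads inside autosomal islands, the only depth the lists give, were 30.7 M for H3K27ac in deleted tumors and 45.0 M in positive tumors. For H3K4me1 they were 29.4 M and 35.3 M. Tumors were taken in bulk, so a mark in fewer cells and less mark per cell cannot be told apart.

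H3K27ac marks active promoters and enhancers. H3K4me1 is found at enhancers, both active and primed, H3K4me3 at promoters, and H3K27me3 on chromatin silenced by Polycomb complexes. Enhancers that lie open or primed before activation usually carry H3K4me1 first, whereas those made from chromatin without either mark are often called latent or de novo enhancers. Foxa1 and Foxa2, forkhead proteins active in lung, liver and gut epithelium, can bind their sites in closed chromatin, and 1 antibody here recognised both. Nkx2-1 is a homeodomain factor that maintains the identity of lung epithelium. Loss of Nkx2-1 in mouse lung adenocarcinoma is known to be accompanied by gastric differentiation.

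The members were weak and narrow islands, a median of 3000 bp from the nearest positive-tumor H3K27ac. About as many carried H3K4me1 in deleted tumors (1606, 50.4%) as did not, whereas 87.4% of all deleted-tumor H3K27ac islands carried it. In 1251 members (39.3%, against 4.51% of all islands) that H3K4me1 island was itself new. Both contrasts follow in part from the rule, since sites with positive-tumor H3K4me1 were excluded. A Foxa1/2 peak of deleted tumors lay on 267 members (8.38%, against 17.0% of all islands). All islands were wider, with a median of 2200 bp against 1400 bp. At the members' widths, a peak lay on 6.83% of kept islands, 16.8% on former H3K4me1 and 11.9% on former H3K27me3. A peak found in deleted tumors only lay on 240 members (7.53%, against 5.90% of all islands). Few carried the promoter mark H3K4me3 (19, 0.596%, against 37.8%), in part by choice, since sites with positive-tumor H3K4me3 were excluded. Another member lay within 50 kb for 58.6%. Shares of islands have 95% Wilson intervals, which cover counting error only and treat islands as independent, although neighbouring islands share libraries and surroundings.

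Read density was low. The members had a median of 51.2 reads per kb (quartiles 44.3 and 60, range 30.5 to 195) and a median width of 1400 bp (quartiles 1000 and 2000, range 200 to 10400). A median member held 64 reads, with a range of 21 to 1313. Kept islands had a median of 73.1 reads per kb, 2400 bp and 191 reads. New islands on former H3K4me1 were close to the members, with 53.4 reads per kb and 1400 bp, and so were those on former H3K27me3, with 54.0 reads per kb and 1400 bp. A member of median density was denser than 22.7% of all H3K27ac islands of the list, 13.8% of members exceeded the list's median, and no member reached its upper 10%. With each class weighted to the members' widths, density was 51.7 in members, 53.6 on former H3K4me1, 53.9 on former H3K27me3 and 61.6 reads per kb in kept islands. The members together held 0.960% of the reads in H3K27ac islands and 2.30% of the covered bases (5.14 Mb). Density and width come from the list that the members were chosen from, so these values are a description without a test.

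**Figure D1:**
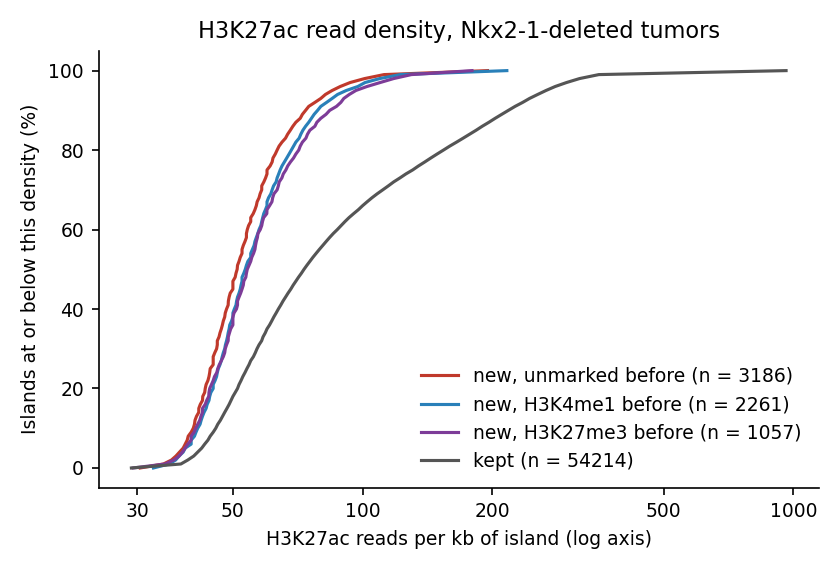
Cumulative share of deleted-tumor H3K27ac islands (vertical axis, percent) by read density (horizontal log axis, reads per kb), with 1 line per class of island. The members (red, median 51.2) run slightly left of the other new islands (medians 53.4 and 54.0), and kept islands (grey, median 73.1) extend to far higher densities.

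The distance to older marks varied widely. The nearest positive-tumor island of any of the 4 marks lay a median of 2000 bp away (quartiles 800 and 4600, maximum 122400). It was an H3K27ac island for 1798 members (56.4%) and an H3K4me1 island for 1476 (46.3%), ties counted for both. It was an H3K27me3 island for 300 and an H3K4me3 island for 138. Within 1000 bp of a positive-tumor island lay 1007 members (31.6%), whereas 732 were more than 5000 bp away and 88 more than 20 kb away. Just inside the rule, 71 members touched a positive-tumor island without overlap, at a median of 47.5 reads per kb. Outside the rule, 124 kept islands overlapped positive-tumor H3K27ac by 200 bp, the size of the caller's window, at 51.7 reads per kb. Their overlap with the other positive-tumor marks was not limited. Another 73 new islands without positive-tumor H3K27me3 overlapped positive-tumor H3K4me1 by 200 bp, at 55 reads per kb, with H3K4me3 not limited. Median density in these groups was thus between 47.5 and 55 reads per kb. Reads outside called islands are not in the lists, so a weak positive-tumor signal at a member cannot be read from them.

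A deleted-tumor Foxa1/2 peak lay on 8.38% of members (interval 7.47 to 9.39), against 17.0% of all autosomal deleted-tumor H3K27ac islands. The share was 17.8% on former H3K4me1 (16.3 to 19.5), 14.7% on former H3K27me3 and 17.5% in kept islands. Wide islands overlap more peaks by width alone, so shares were also compared at the members' widths. Members minus former H3K4me1 then came to -8.46 points (95% interval -10.2 to -6.69), and the unweighted share was lower on all 19 autosomes. Members minus former H3K27me3 came to -3.49 points (-5.61 to -1.37). The order turned against kept islands, which at the members' widths had a peak in 6.83%, so that the members stood 1.56 points higher (0.587 to 2.52). Unweighted, the members' share was below that of kept islands on all 19 autosomes. The last width class, open at 4000 bp, also holds kept islands wider than any member. New H3K27ac at unmarked sites therefore met Foxa1/2 less often than new islands of equal width on former H3K4me1 or former H3K27me3. Of the latter class, 528 of 1057 also lay on positive-tumor H3K4me1, and Foxa1/2 was not compared within that split. Only when weighted by width did new H3K27ac at unmarked sites meet Foxa1/2 somewhat more often than kept H3K27ac.

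Peaks found in deleted tumors only lay on 240 members (7.53%, 6.67 to 8.50), against 5.90% of all H3K27ac islands. At equal widths this was 5.61 points above kept islands (4.71 to 6.51), and the difference from former H3K4me1 was -3.23 points (-4.76 to -1.70). The members held 267 deleted-tumor peaks, of which 90.3% (86.1 to 93.3) were absent from the positive-tumor list. Among peaks on former H3K4me1 that share was 65.2%, in kept islands 27.2%, and over all autosomal deleted-tumor peaks 32.9%. Because members were chosen for the absence of positive-tumor marks, the positive-tumor factors are low there in part by choice. Positive-tumor Foxa1/2 lay on 36 members (1.13%, against 22.2% of all islands) and Nkx2-1 on 7 (0.220%, against 28.0%). All mice behind the deleted-tumor Foxa1/2 list were female and those behind the positive-tumor list male, so sex and tumor type cannot be told apart for a peak found in deleted tumors only. Seen from the factor, 241 of the 4696 peaks found in deleted tumors only (5.13%) lay on a member.

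Where a peak was present, its summit mostly lay inside the island. Of the members with a peak, 263 had 1 and 4 had 2. The summit lay inside the member for 222 peaks (83.1%), at a median of 291 bp from its centre, and 140 of these (63.1%) lay in the central of 3 equal parts. The median peak score, the authors' own value per peak, was 135 in members, 153 on former H3K4me1 and 165 in kept islands. Among peaks found in deleted tumors only the order was different, with medians of 128 in members, 118 on former H3K4me1, 103 in kept islands and 91 outside H3K27ac. Counting only the upper 50% of all deleted-tumor peaks by score left 3.70% of members with a peak. A peak within 5 kb, overlap included, was found for 30.5% of members (28.9 to 32.1), 30.7% of islands on former H3K4me1 and 26.9% of kept islands. Members without a peak lay a median of 13.9 kb from the nearest.

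**Figure D2:**
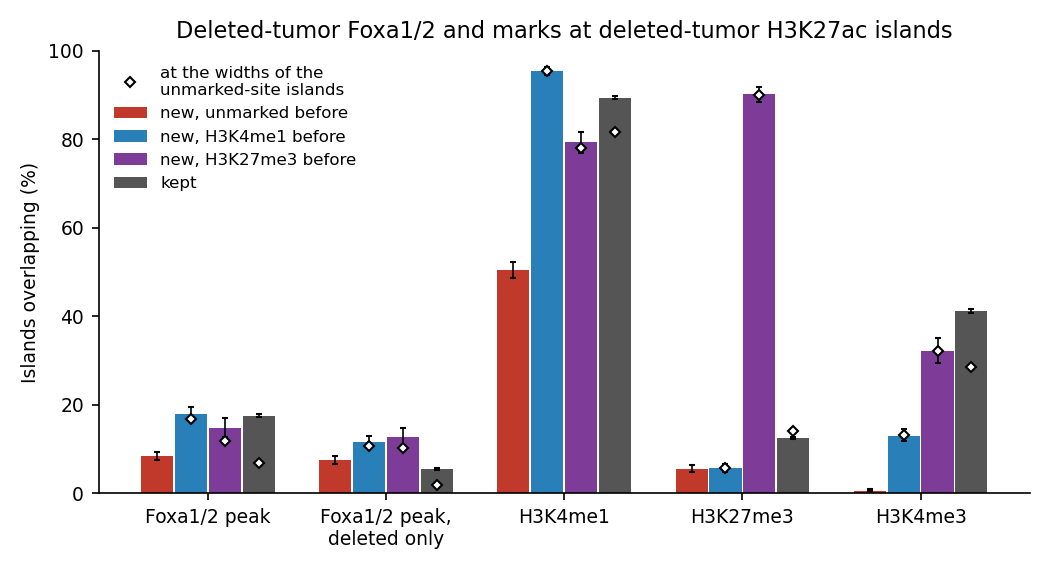
Share of deleted-tumor H3K27ac islands (percent) that overlap a Foxa1/2 peak, a peak found in deleted tumors only, or an island of H3K4me1, H3K27me3 or H3K4me3, all of deleted tumors. Bars are the 4 classes with 95% Wilson intervals and diamonds give the other classes at the members' widths; H3K4me1 covers 50.4% of members and 95.5% of new islands on former H3K4me1, and the high H3K27me3 bar belongs to the class defined by H3K27me3 in positive tumors.

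H3K4me1 of deleted tumors overlapped 1606 members (50.4%, 48.7 to 52.1), against 87.4% of all deleted-tumor H3K27ac islands. It overlapped 95.5% of new islands on former H3K4me1, 79.4% on former H3K27me3 and 89.4% of kept islands. At equal widths the differences of the members from these classes were -45.0, -27.5 and -31.3 points, and the members were lower on all 19 autosomes in each case. These differences follow in part from the rule, since the first class was defined by positive-tumor H3K4me1 and the others may hold it. Where H3K4me1 was present it covered a median of 83.3% of the member, and 1427 members (44.8%) were covered over at least 50% of their length. Members without H3K4me1 lay a median of 2000 bp from the nearest H3K4me1 island.

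H3K4me1 that was gained, in islands that overlapped no positive-tumor H3K4me1 island, lay on 1251 members (39.3%, 37.6 to 41.0). Over all H3K27ac islands of deleted tumors this share was 4.51%. The background is low by construction, since islands on positive-tumor H3K4me1 can seldom lie under a gained one. Among new islands on former H3K27me3 the share was 0.947% of the 528 that also lay on positive-tumor H3K4me1 and 53.9% (49.6 to 58.1) of the 529 that did not. Only the latter lacked positive-tumor H3K4me1 as the members did. Members minus these 529 gave -11.6 points at equal widths (-16.0 to -7.16), lower on 16 of 19 autosomes, with 2 members left out for want of an island of their width. This division of the class was chosen after its values were seen. In the other 355 members with H3K4me1 (11.1%) the H3K4me1 island reached in from a place already marked in positive tumors. Of the 5489 gained H3K4me1 islands, 1193 (21.7%) overlapped a member, 1115 (20.3%) no member but a kept H3K27ac island, and 2889 (52.6%) no H3K27ac at all.

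This H3K4me1 was itself of low density. Gained islands on members had a median of 62.5 reads per kb, other gained islands 57.5 and all autosomal H3K4me1 islands of deleted tumors 78.1. When only the upper 50% of H3K4me1 islands by density was counted, 13.5% of members carried H3K4me1 and 7.78% a gained island, so both counts rest mainly on islands in the lower part of the H3K4me1 list.

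Foxa1/2 and H3K4me1 were found together. Of the 267 members with a Foxa1/2 peak, 242 (90.6%) carried H3K4me1, against 46.7% of the 2919 without a peak. At equal widths the difference was 32.4 points (28.0 to 36.7) and held its direction on all 19 autosomes. A gained H3K4me1 island lay on 78.7% of members with a peak and 35.7% of those without, a difference of 30.2 points at equal widths (24.8 to 35.5), again on 19 of 19 autosomes. Members with a peak were wider (2000 against 1400 bp), and at equal widths also denser in H3K27ac (66.0 against 54.0 reads per kb). They lay farther from the nearest kept island, at a median of 4600 against 2400 bp. By height of the peak, H3K4me1 lay on 123 of 134 members (91.8%) whose top score was at or above the median of 138 and on 119 of 133 others (89.5%). In 190 members (5.96%) a Foxa1/2 peak found in deleted tumors only met a gained H3K4me1 island, and these had a median width of 2200 bp and 66.0 reads per kb.

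The members fell mainly into a pair of states. H3K27ac with none of the other 3 marks was found at 1505 members (47.2%, against 9.51% of all H3K27ac islands), of which 21 had a Foxa1/2 peak. H3K27ac with H3K4me1 and no further mark was found at 1491 (46.8%, against 45.4%), of which 224 had a peak. H3K4me1 and H3K27me3 without H3K4me3 were found at 97 (3.04%, against 4.79%), and H3K27me3 without H3K4me1 or H3K4me3 at 74 (2.32%, against 2.53%). The state with H3K4me1 and H3K4me3 but no H3K27me3, found at 31.7% of all islands, was that of 12 members. The rule excluded positive-tumor H3K4me1, H3K4me3 and H3K27me3, which kept islands may hold. These contrasts with all islands therefore follow in part from the rule.

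H3K27me3 of deleted tumors overlapped 177 members (5.56%, 4.81 to 6.41), against 13.2% of all H3K27ac islands. The share on former H3K4me1, where positive-tumor H3K27me3 was absent by definition too, was 5.62%, and the difference at equal widths was -0.194 points, with an interval of -1.48 to 1.095. H3K27me3 islands found in deleted tumors only lay on 108 members (3.39%, against 2.59% of all islands). That background is low in part by construction, since it includes islands on positive-tumor H3K27me3. At equal widths, members minus former H3K4me1 gave 0.928 points (-0.0243 to 1.88) and members minus kept islands 1.06 (0.387 to 1.73). In bulk tumors a site with both marks can also hold them in different cells. H3K4me3 overlapped 19 members (0.596%, 0.382 to 0.930), against 37.8% of all H3K27ac islands. The rule excluded positive-tumor H3K4me3, so this low share follows in part from it. H3K4me3 islands absent from positive tumors, to which all 19 belonged, lay on 1.24% of all islands. For these, members minus kept islands came to 0.0945 points at equal widths (-0.235 to 0.424). Against former H3K4me1 the difference was -1.38 points (-2.08 to -0.678) and against former H3K27me3 -3.72 (-5.08 to -2.37). None of the 19 remained when H3K4me3 was limited to the upper 50% of its islands by density, which allows a share of up to 0.120% (upper Wilson bound).

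Foxa1/2 and H3K4me1 were more frequent on members of higher read density. From the lowest to the highest of 5 equal classes of read density (30.5 to 43.1 and 63.3 to 195 reads per kb), the share with Foxa1/2 was 2.51, 3.30, 6.28, 9.58 and 20.3%. The share with H3K4me1 went from 33.2% to 72.5%, and that with gained H3K4me1 from 23.7% to 63.1%. The share with H3K27me3 did not follow, with 6.43% in the lowest and 5.02% in the highest class and intervals that overlap. By width, Foxa1/2 lay on 7.49% of members of 200 to 600 bp, 3.91% at 800 to 1000 bp and 30.9% of the 220 members over 3000 bp. H3K4me1 lay on 37.1% of the narrowest class and 87.7% of the widest. Wide islands overlap more by width alone. The density classes were not matched for width, and members of 200 to 600 bp had a median of 65 reads per kb.

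**Figure D3:**
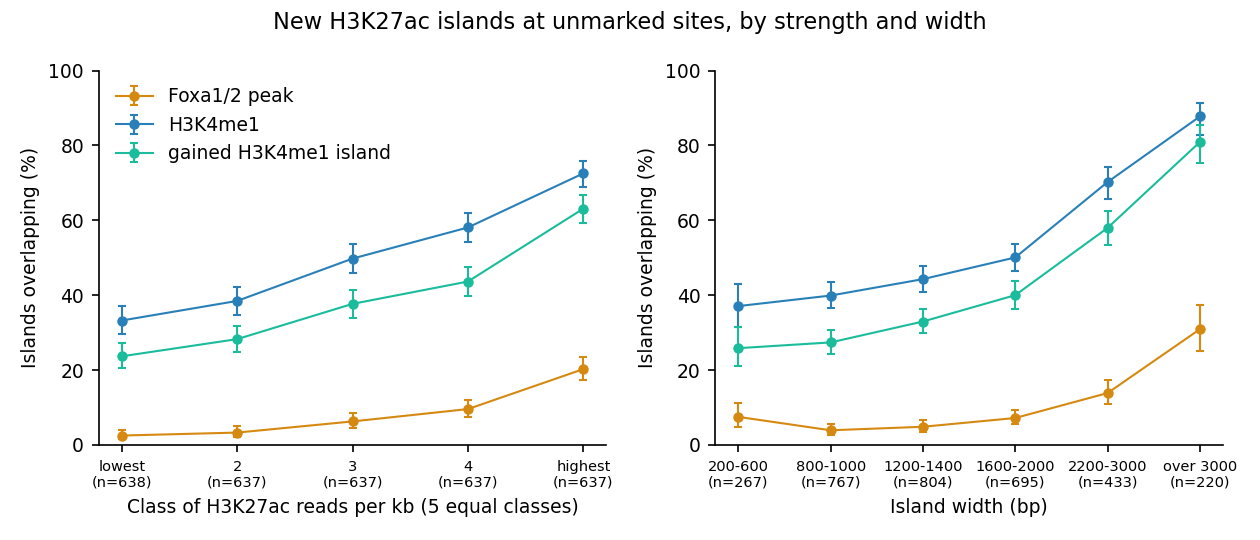
Share of members (percent, 95% Wilson intervals) with a deleted-tumor Foxa1/2 peak, an H3K4me1 island or a gained H3K4me1 island, by 5 equal classes of H3K27ac read density (left) and by width (right). The Foxa1/2 share goes from 2.51% in the lowest density class to 20.3% in the highest, and H3K4me1 from 33.2% to 72.5%.

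The members at the upper end show these features singly, with coordinates of build mm9. The widest, chr7:152324001-152334400, spanned 10400 bp with 681 reads (65.5 per kb). It held a Foxa1/2 peak of score 142 and 2 gained H3K4me1 islands that covered 63.5% of it. The next, chr4:131704801-131714800, had the most reads of all members, 1313 over 10000 bp, and was denser than 77.7% of H3K27ac islands. It held 2 Foxa1/2 peaks found in deleted tumors only, the higher with a score of 563, and H3K4me1 covered 84.0% of it. A gained H3K27me3 island covered 22.0%. A member of 9200 bp at chr17:43240601-43249800 held a peak of score 115, and H3K4me1 covered 34.8% of it.

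Among members of at least 1000 bp, the densest were short and had no Foxa1/2 peak. The region chr2:59233801-59235200 held 273 reads in 1400 bp (195 per kb), under a gained H3K4me1 island that covered 85.7%. At chr1:54658401-54660000, 293 reads fell in 1600 bp (183 per kb) under an H3K4me1 island that reached in from a place marked in positive tumors. At chr1:90119801-90121400, 286 reads in 1600 bp (179 per kb) came without any other mark or peak, and the nearest positive-tumor island was 16800 bp away. High H3K27ac density at a member was thus found both with and without H3K4me1.

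The highest Foxa1/2 peak on a member stood apart from the rest. At chr16:55375801-55382000 a peak of score 3100, exceeded by 10 autosomal peaks of the list, lay under an H3K27ac island of 6200 bp and 448 reads. Positive tumors had a peak of score 777 at the same place, where their list has 3235 higher ones. No H3K4me1 lay on this member, and the nearest H3K4me1 island of deleted tumors was 98400 bp away. The nearest kept H3K27ac island was 119400 bp away. The next highest were found in deleted tumors only. The member chr1:90849801-90853600 had a score of 1878, gained H3K4me1 over 78.9% and gained H3K27me3 over 21.1% of its length. The member chr4:87460601-87463200 had a score of 1686 and gained H3K4me1 over 84.6%. The widest members under gained H3K4me3 were chr1:94845801-94849000, chr8:94095401-94098000 and chr10:119604401-119606800. All 3 also carried gained H3K4me1, and the last held a Foxa1/2 peak of score 66. No gene annotation of mm9 was at hand, and the regions are given without genes.

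Distance to older chromatin marks separated the kinds of H3K4me1 rather than its amount. H3K4me1 of any kind lay on 55.9% of the 170 members within 200 bp of a positive-tumor island and on 45.0% of the 837 at 400 to 1000 bp. Farther away it lay on 50.9% (1200 to 5000 bp), 53.9% (over 5 and up to 20 kb) and 56.8% (88 members over 20 kb). Gained H3K4me1 went from 16.5% and 20.5% in the 2 nearest classes to 45.3%, 53.6% and 56.8%. At equal widths, members more than 1000 bp away had gained H3K4me1 26.4 points more often than nearer ones (23.2 to 29.6, 19 of 19 autosomes). For H3K4me1 of any kind the difference was 3.21 points, with an interval of -0.393 to 6.81, and for Foxa1/2 2.06 points (-0.0787 to 4.21). A gained island must lie clear of positive-tumor H3K4me1, which leaves less room for it near a marked place. From the nearest to the farthest class, Foxa1/2 lay on 9.41, 5.62, 8.36, 10.2 and 19.3% of members. The last value rests on 88 members, with an interval of 12.4 to 28.8.

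The spacing of members varied. Another member lay within 5 kb of 28.0%, within 20 kb of 46.2%, within 50 kb of 58.6% (56.8 to 60.3) and within 100 kb of 68.8%. New islands on former H3K4me1 had another of their class within 50 kb in 36.4% of cases and those on former H3K27me3 in 48.6%. For kept islands, by far the largest class, it was 96.3%, with a median gap of 2.2 kb against 26.6 kb between members. A class with more islands has shorter gaps on that ground alone, so these shares do not measure clustering between classes. The nearest deleted-tumor H3K27ac island of any class was a median of 1000 bp away, against 2600 bp for islands on former H3K4me1, 4400 bp for those on former H3K27me3 and 1800 bp for kept islands. That neighbour was a kept island for 2151 members (67.5%) and another member for 734 (23.0%). Per chromosome, members made up between 3.78% (chromosome 19) and 6.58% (chromosome 14) of H3K27ac islands.

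When members with gaps of up to 50 kb were joined, 1320 stood alone (41.4%) and the others formed 609 clusters, 348 of them pairs. The 50 clusters of 6 or more lay on 17 chromosomes and held 433 members (13.6%), with a median span of 95.7 kb. Members of the large clusters carried Foxa1/2 and H3K4me1 less often than members alone. From members alone to pairs, clusters of 3 to 5 and clusters of 6 or more, H3K4me1 lay on 56.5, 54.5, 47.4 and 30.5%. Foxa1/2 lay on 10.8, 8.19, 6.51 and 4.62% and gained H3K4me1 on 43.4, 42.5, 36.6 and 25.9%. Read density was 50.8 reads per kb in members alone and 51.2 in the large clusters. At equal widths, members of large clusters minus members alone gave -29.7 points for H3K4me1 (-34.5 to -25.0, lower on 15 of 17 chromosomes). For Foxa1/2 the difference was -7.99 points (-11.0 to -5.01, lower on 14 of 17).

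**Figure D4:**
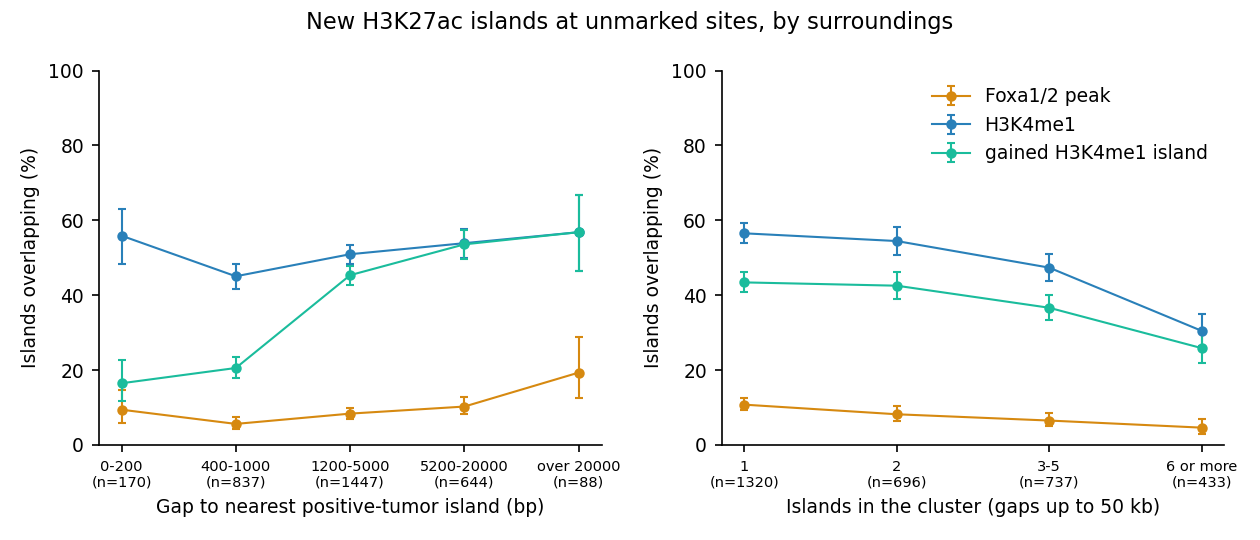
Share of members (percent, 95% Wilson intervals) with a Foxa1/2 peak, H3K4me1 or gained H3K4me1, by distance in bp to the nearest positive-tumor island of the 4 marks (left) and by number of members in the cluster (right). Gained H3K4me1 goes from 16.5% in the nearest class to 56.8% in the farthest, and H3K4me1 from 56.5% in members alone to 30.5% in clusters of 6 or more.

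Most of the large clusters lay in stretches with positive-tumor H3K27ac, which was absent from 2 of the 50. Over the 50 clusters, from the first base of the first member to the last of the last, H3K27ac islands covered a median of 55.3% in deleted tumors and 23.3% in positive tumors. Members count among the former, so H3K27ac is higher there by choice. H3K4me1 covered 30.8% in deleted and 16.6% in positive tumors, and no cluster was without it. H3K27me3 was absent in 35 of the 50 clusters in deleted tumors and in 40 in positive tumors.

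The largest cluster, chr15:61321201-61618600, held 36 members in 297.4 kb, and the next 3 had 14 each. None of its 36 members had a Foxa1/2 peak, and 4 had H3K4me1, all gained. Between the members lay 11 kept H3K27ac islands. H3K27ac covered 55.8% of the stretch in deleted tumors and 21.3% in positive tumors, with 22400 and 9471 reads in islands. These counts are not scaled for depth, and those of deleted tumors include the members, chosen for being new. H3K4me1 covered 20.3% and 15.3%. Each tumor type had 8 Foxa1/2 peaks in the stretch, Nkx2-1 had 7 in positive tumors, and neither tumor type had H3K27me3. Without this cluster the share of members with Foxa1/2 was 8.48%, with H3K4me1 50.9% and with gained H3K4me1 39.6%. In the remaining clusters of 6 or more, H3K4me1 lay on 32.2% of 397 members and Foxa1/2 on 5.04%.

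The cluster at chr16:25388201-25548000 was similar, with 14 members in 159.8 kb, of which none had Foxa1/2 and 1 had H3K4me1. Its cover by H3K27ac was 61.1% in deleted tumors and 29.2% in positive ones. At chr14:99716401-99954000, 14 members spanned 237.6 kb, 2 had Foxa1/2 and 6 had H3K4me1, 5 of them under a gained island. Coverage by H3K27ac was 44.9% and 22.0%.

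**Figure D5:**
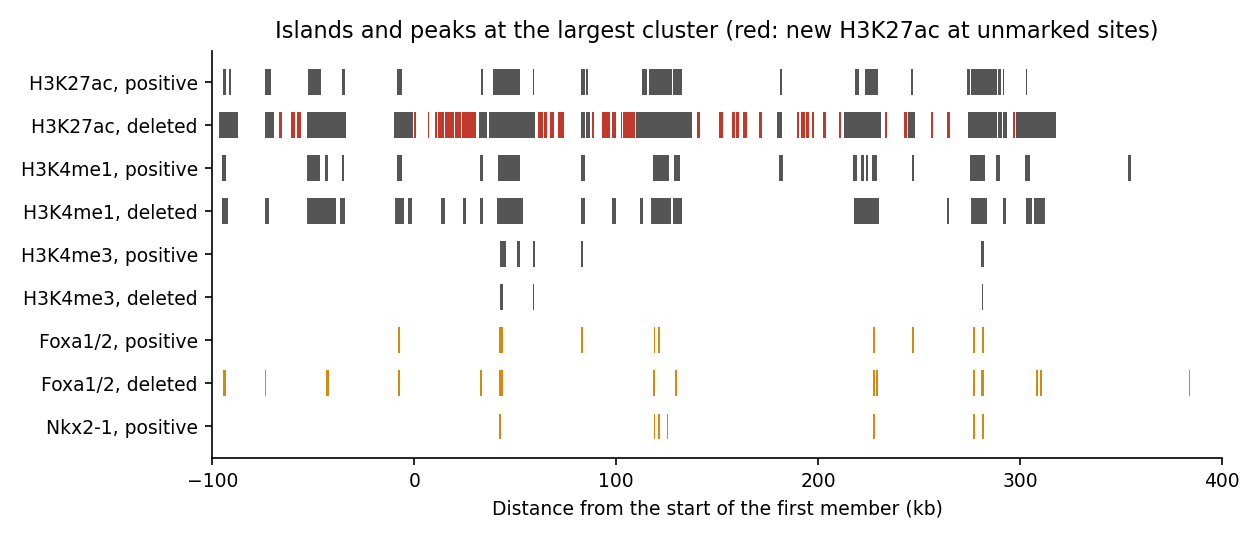
Map of the largest cluster and 100 kb on each side, in kb from the start of its first member, with 1 line per list. Red boxes are members (those left of 0 lie more than 50 kb from the cluster), grey boxes other islands and orange boxes peaks; members fill the gaps between kept H3K27ac islands, and few lie under H3K4me1.

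The opposite change gives a measure of the members' makeup. By the same rule with the tumor types exchanged, 10094 of 71961 autosomal positive-tumor H3K27ac islands (14.0%) overlapped no deleted-tumor island of the 4 marks. Their median width was also 1400 bp. The lists differ in length and depth, so the numbers of such islands do not show which change was more frequent. A Foxa1/2 peak of the same tumor type lay on 5.15% of these islands, against 8.38% of members, a difference of 3.21 points at equal widths (2.17 to 4.24). Foxa1/2 is the less frequent in the deleted list as a whole, where 17.0% of H3K27ac islands had a peak, against 21.1% in positive tumors. The deleted-tumor Foxa1/2 list came from females and the positive-tumor list from males. Sex and tumor type therefore cannot be told apart in these Foxa1/2 differences. Gained H3K4me1 lay on 39.3% of members, and H3K4me1 found in positive tumors only on 40.5% of the opposite islands. Over all H3K27ac islands of the respective tumor type these shares were 4.51% and 10.4%. That difference was -1.02 points at equal widths, with an interval (-2.88 to 0.835) that includes 0. H3K27me3 of the same tumor type lay on 5.56% of members and 2.15% of the opposite islands, 3.40 points more at equal widths (2.53 to 4.26), with 13.2% of all deleted-tumor and 10.6% of all positive-tumor islands. H3K4me3 went the other way, with 0.596% of members and 2.85% of the opposite islands, a difference of -2.35 points (-2.82 to -1.88). Over all islands H3K4me3 lay on 37.8% in deleted and 42.1% in positive tumors.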

How the data were processed

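Per the submitters' processing notes, Bowtie, MACS 1.4.2, SICER 1.1 and build mm9 were used, and the labels give single-end reads of 40 to 50 nucleotides. The deposited peak lists carry a p of 1e-06 in their names and a score and summit per peak. The deposited island lists give a read count per island, not scaled for depth. Their names state an FDR of 0.01 and windows of 200 bp, with gaps of 200 bp for H3K27ac and H3K4me3 and of 600 bp for the other marks. The file names and track headers call the lists merged. Ranks and medians of count and score were taken within a list. Read counts of the largest cluster, reads given as depth, and scores at a named site are shown for both tumor types without scaling.

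Islands were read with the end column as the last base. Read density is the count divided by width in kb. Gained means overlapping no positive-tumor island or peak of the same kind. Differences at equal widths were taken within width classes of 200 bp, the last open at 4000 bp, weighted by the members' widths (the first-named group's within the members), with 95% intervals from binomial variances. Numbers of autosomes compare unweighted shares. Intervals cover counting error only.

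Named regions are the 3 widest members, the 3 densest of at least 1000 bp, the 3 with the highest Foxa1/2 scores, the 3 widest under gained H3K4me3, and the 3 clusters with most members. The members, classes and rules were chosen with earlier results of these data known. Inputs had no island or peak list and were not analysed here. Chromosomes X and Y lay outside the rule, and X was used only as an alternative. Gene lists and sequences were not analysed, since no mm9 annotation or genome was at hand. The overlap and width code was tested on simulated data. Python 3.11.15, numpy 2.4.6, pandas 2.3.3 and matplotlib 3.10.9 were used.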

Additional observations from a re-analysis of the deposited data

How the results depend on the processing

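No paired analysis was possible because both files of each group hold the same merged list, and for the same reason no replicate could be left out. The number of members (3186) was within 1.5 times in 6 of 7 alternatives, from 2179 with no positive-tumor island within 1 kb to 4544 with an overlap of at least 50% needed to count as marked. Of 63 alternatives for the other results, 35 left the value within its interval, 27 moved it and 1 turned a direction. The Foxa1/2 difference at equal widths was -8.46 points against former H3K4me1 and 1.56 with kept islands as the comparison, and -4.95 with the upper 50% of Foxa1/2 peaks. The upper 50% of members by density numbered 1594, with 60 reads per kb, Foxa1/2 on 13.6%, H3K4me1 on 62.7%, gained H3K4me1 on 50.6% and another such member within 50 kb for 43.04%. With members of at least 1000 bp the values were 49 reads per kb, H3K4me1 53.5%, gained H3K4me1 42.5% and a neighbour 54.6%. With no positive-tumor island within 1 kb, gained H3K4me1 was 48.2% and a neighbour 53.7%. Over distances of 20 and 100 kb a neighbour was found for 46.2% and 68.8%. Foxa1/2 lay on 6.87% by summit and 3.70% with the upper 50% of peaks. With at least 50% of the member covered, H3K4me1 was 44.8%, gained H3K4me1 35.4%, H3K27me3 4.02% and H3K4me3 0.282%. With the upper 50% of each mark's islands these were 13.5, 7.78, 2.01 and 0%. Without clusters of 6 or more, an alternative chosen after seeing the data, H3K4me1 was 53.5%, gained H3K4me1 41.4% and a neighbour 52.1%. Depth limits the counts of weak islands, since every list ends at its caller's threshold.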
